A study of Rattus norvegicus with 36 samples.

Results

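The comparison described here set rats that received cocaine on all 5 days (Coc–Coc) against rats that received only physiological serum (Sal–Sal), in the nucleus accumbens, the ventral part of the striatum. Its members were chosen by treatment label, 15 cocaine injections against 15 serum injections. They make up 24 of the 36 libraries of the series and 6 of its 9 pools, because each pool was deposited as 4 technical replicates that were summed here. The rats were male Sprague-Dawley animals aged 8 weeks by the labels. Each received 3 injections a day, cocaine at 20 mg/kg per injection, and was dissected 24 h after the last one. Each group had 3 pools of 2 rats by the methods, whereas the labels name a single rat for each library, and the Coc–Coc libraries carry the phenotype label vulnerable rat although their description reads tolerant rat. A further group (Sal–Coc, 13 serum and 3 cocaine injections by the labels) entered the statistical fit to share the estimate of spread. It also entered the gene filter, the normalization and the mean level that set the expression classes. It is not a side of the comparison, so that n = 3 pools a side throughout. Injections were given by the experimenter, and the tissue is a dissected region that mixes neurons, glia and vessels.

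Cocaine blocks the dopamine transporter and so prolongs dopamine signalling at the synapse. The nucleus accumbens receives dense dopamine input from the midbrain, and most of its neurons are inhibitory projection neurons that use GABA. Repeated exposure to psychostimulants is known for slow changes in gene expression there, in ion channels, receptors and chromatin regulators among others. The series title names tolerance to the motor effects of the drug as its subject, and the comparison asks which transcripts differed from serum-treated rats once that schedule had been completed.

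Totals in the 6 pools compared ranged from 37.0 M to 42.4 M counts. For CPM these totals were multiplied by TMM normalization factors, from 0.9151 in Sal–Sal pool 1 to 1.0182 in Coc–Coc pool 2. A level of 1 CPM is 1 count in 1 M of the scaled total. The pools of a group were not equally close to the other group. Over 9950 genes with a mean of at least 10 CPM, the median absolute log2 difference between pools of the same group was 0.0814 to 0.16, and between pools of different groups it was 0.159 to 0.251. Sal–Sal pool 1 lay 0.246 to 0.251 from the Coc–Coc pools, whereas Sal–Sal pools 2 and 3 lay 0.159 to 0.182 from them. The distance from Sal–Sal pool 3 to Coc–Coc pool 2 was therefore no larger than its distance of 0.16 to Sal–Sal pool 1. The results below depended on these pools. Without Coc–Coc pool 3 no gene passed the adjusted threshold (0 called, smallest adjusted p = 0.0756, 3533 genes at an unadjusted p under 0.05), without Sal–Sal pool 1 there were 292 calls and without Coc–Coc pool 2 there were 174. Of the genes called with all pools, 0 changed sign in any of these fits. They had been called for effects large beside their standard errors, so leaving out a pool could hardly reverse them. Every call of a gene named below is lost without Coc–Coc pool 3, and the log2 fold changes without that pool are given beside the genes.

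The 5 days of cocaine were accompanied by many small differences and few large ones. Of 15641 genes tested with edgeR's quasi-likelihood test (Benjamini-Hochberg adjusted p under 0.05), 1702 (10.9%) differed between Coc–Coc and Sal–Sal. Of these, 1115 (7.13% of the genes tested) were upregulated and 587 (3.75%) were downregulated. Among the called genes, 998 (58.6%) differed by less than 0.5 on the log2 scale, 571 (33.5%) by 0.5 to 1 and 133 (7.81%) by 1 or more, a doubling or halving, with 88 of the latter upregulated and 45 downregulated. Only 15 of the called genes differed by 2 or more on this scale. The median log2 fold change was 0.50 in the upregulated and −0.38 in the downregulated genes, against −0.01 over all genes tested. The 3 pools of one group all lay above or below the 3 of the other for 5746 genes (36.7%), with Coc–Coc higher for 3036 of them and lower for 2710. The share of called genes that were upregulated depended on the scaling and on single pools. It was 65.5% with TMM factors, 79.4% (701 of 883) with library totals only and 55.6% (957 of 1721) with upper-quartile factors. It was 89.4% (261 up, 31 down) without Sal–Sal pool 1 and 94.8% (165 up, 9 down) without Coc–Coc pool 2.

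The calls come from a test against a difference of 0 and not against a minimum size. When the same fit was asked which genes differed by more than 1.2-fold (0.26 on the log2 scale; edgeR's glmTreat), 0 genes passed the adjusted threshold. The smallest adjusted p was 0.0605, and 1831 genes had an unadjusted p under 0.05, 1330 of them upregulated. For a minimum of 1.5-fold, again 0 genes passed, the smallest adjusted p was 0.51, and 369 genes had an unadjusted p under 0.05. These counts were not 0 in every setting. The 1.2-fold minimum was passed by 258 genes without Sal–Sal pool 3, 18 without Coc–Coc pool 1, 9 without Sal–Coc pool 1, 68 with no filter on low counts and 10 with technical replicate a alone, and the 1.5-fold minimum by 6 genes without Coc–Coc pool 1.

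**Figure D1:**
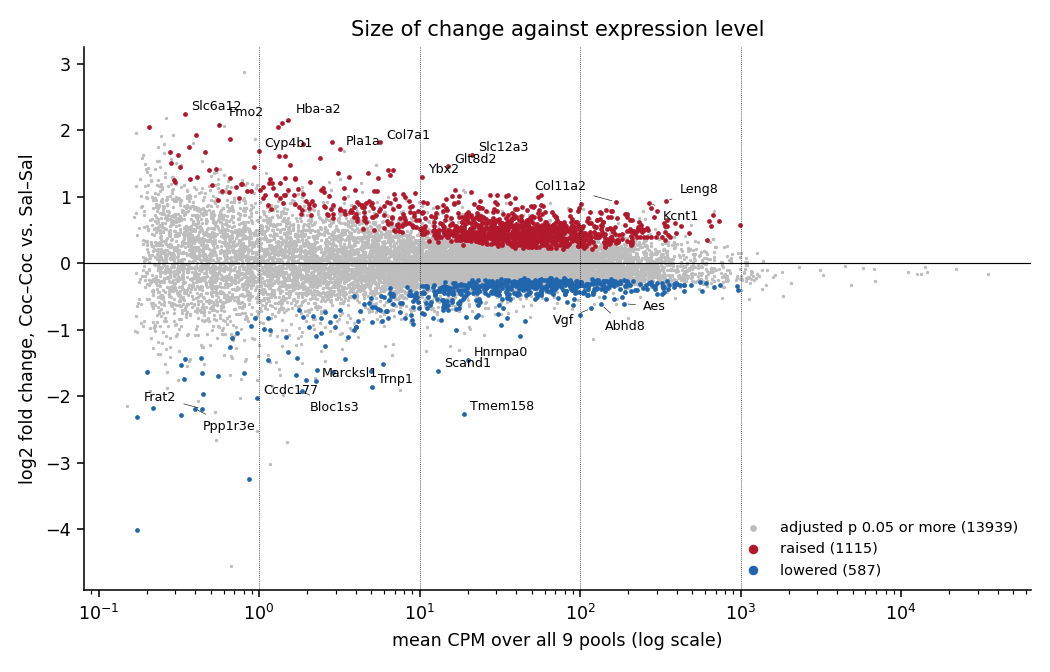
Log2 fold change of each of the 15641 genes tested (vertical axis, Coc–Coc vs. Sal–Sal) against its mean CPM over all 9 pools (horizontal axis, log scale), with upregulated genes in red, downregulated genes in blue, the rest in grey, and dotted lines at the class borders. The 1115 red and 587 blue points narrow towards the zero line as expression rises, and none lies right of 1000 CPM.

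The share of genes called and the smallest size called differed by expression level. Genes were divided by mean CPM over all 9 pools into 5 classes. Below 1 CPM, 52 of 2006 genes (2.59%) were called, 30 up and 22 down. From 1 to 10 CPM the number was 229 of 3685 (6.21%), 150 up and 79 down. From 10 to 100 CPM, 1134 of 7737 genes (14.7%) were called, 773 up and 361 down, and from 100 to 1000 CPM 287 of 2158 (13.3%), 162 up and 125 down. At 1000 CPM or more 0 of 55 genes were called by edgeR, although 8 had an unadjusted p under 0.05, and DESeq2 called 8 and limma-voom 1. In 10 of these 55 most abundant genes (18.2%, against 36.7% of all genes tested) the pools of the groups did not overlap, and in each of those 10 the Coc–Coc pools were the lower ones.

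The median standard error of the log2 fold change fell from 0.39 below 1 CPM to 0.21 at 1 to 10 CPM and 0.10 at both 10 to 100 and 100 to 1000 CPM, and it was 0.14 at 1000 CPM or more. The smallest size called fell in parallel, from 0.83 to 0.36, 0.22 and 0.22. The median size over all genes of a class, called or not, was 0.38, 0.25, 0.18, 0.17 and 0.16 from the lowest to the highest class, and in the lowest class it equalled the median standard error to within 0.01. Of the 133 called genes that at least doubled or halved, 48 were below 1 CPM, 68 at 1 to 10 CPM, 17 at 10 to 100 CPM and 0 above. The largest called size was 4.01 below 1 CPM and 0.93 at 100 to 1000 CPM.

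**Figure D2:**
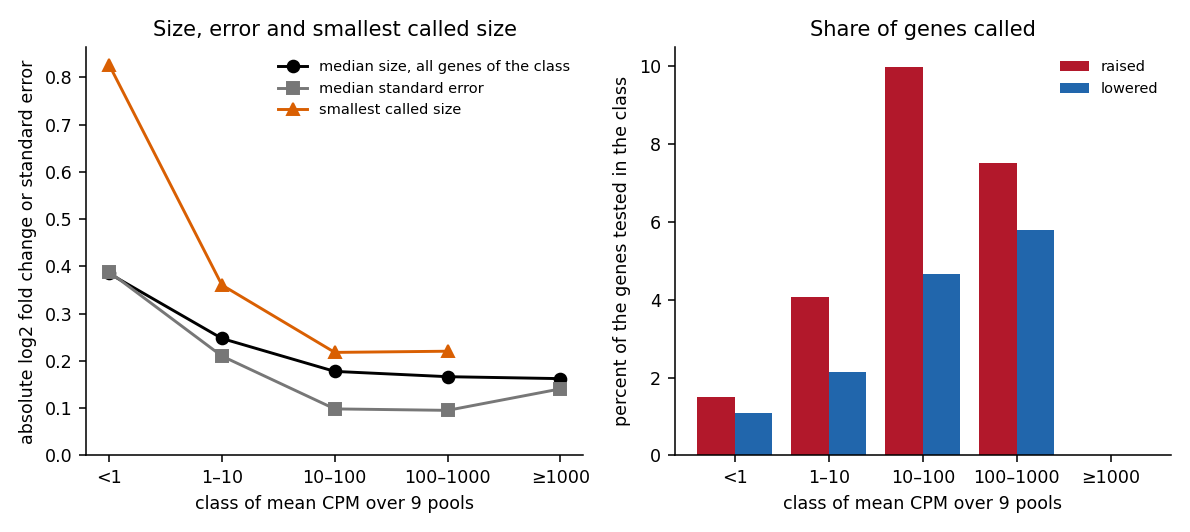
Left, median absolute log2 fold change of all genes (circles), median standard error (squares) and smallest called size (triangles) in the 5 classes of mean CPM. Right, the percent of genes in each class that were upregulated (red) and downregulated (blue). The smallest called size drops from 0.83 to 0.22 while the median size drops only from 0.38 to 0.16, and the class at 1000 CPM or more has no called gene.

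The count tables list Ensembl identifiers without symbols, and a symbol could be joined only for genes that the study itself listed in one of its ventral striatum comparisons. This affects every count of named genes. Of 1504 tested genes with a symbol, 930 (61.8%) were called here, 744 up and 186 down. Of the 782 whose symbol came only from another comparison of the study, 246 (31.5%) were called, 205 up (26.2%) and 41 down (5.24%). A further 772 called genes, 371 up and 401 down, have no symbol and are not named, so downregulated genes are named less completely than upregulated ones. For each class below, the 3 upregulated and the 3 downregulated genes of largest size with non-overlapping pools and a RefSeq symbol are described. Since they were chosen for their size, their values are a description. Values in CPM are scaled by library size and not by gene length, so levels are not compared between genes.

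In the class below 1 CPM, the genes of largest size were Slc6a12, Fmo2 and Cyp4b1 among those upregulated and Frat2, Ppp1r3e and Ccdc177 among those downregulated. Slc6a12, a plasma membrane transporter of betaine and GABA, was at 0.0590, 0.0247 and 0.119 CPM in Sal–Sal pools 1 to 3 and at 0.349, 0.232 and 0.434 CPM in the Coc–Coc pools, which rests on 2, 1 and 5 against 13, 10 and 18 reads. On the log2 scale this is a difference of 2.25 ± 0.51 (± standard error here and below), with an adjusted p of 0.0283. Fmo2, a flavin-containing monooxygenase, was at 0.207, 0.223 and 0.167 CPM in Sal–Sal and 1.23, 0.463 and 0.845 CPM in Coc–Coc pools, a log2 fold change of 2.07 ± 0.38. Cyp4b1, an oxidase of the cytochrome family, went from 0.443, 0.321 and 0.524 CPM to 1.53, 0.834 and 1.81 CPM (log2 fold change 1.69 ± 0.33). In each of the 3 genes Coc–Coc pool 2 was the lowest of its group. In the other direction, Frat2, a regulator of Wnt signalling, went from 1.06, 1.11 and 0.690 CPM in Sal–Sal to 0.295, 0.185 and 0.145 CPM in Coc–Coc (log2 fold change −2.19 ± 0.36, adjusted p = 0.0161). Ppp1r3e, a subunit that directs a protein phosphatase to glycogen, had 15, 40 and 40 reads in Sal–Sal and 10, 9 and 2 in Coc–Coc (log2 fold change −2.19 ± 0.50). Ccdc177 went from 1.92, 2.08 and 1.67 CPM to 0.778, 0.301 and 0.314 CPM (log2 fold change −2.03 ± 0.37). Pools that do not overlap were a condition of choice, and the Ppp1r3e pools nearest each other, 0.443 and 0.268 CPM, rest on 15 and 10 reads. Without Coc–Coc pool 3 the log2 fold changes were 2.02, 2.07 and 1.45 for the 3 upregulated genes and −1.99, −1.74 and −1.82 for the 3 downregulated ones.

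At 1 to 10 CPM, the upregulated genes of largest size were a globin, a collagen and a phospholipase. Hba-a2, an alpha globin of red blood cells, was at 0.974, 0.297 and 0.619 CPM in Sal–Sal and 3.00, 1.53 and 3.55 CPM in Coc–Coc, a log2 fold change of 2.11 ± 0.47 (adjusted p = 0.0276). Alpha globin genes have near-identical copies and reads that mapped more than once had been removed, so this value is uncertain. Col7a1, the collagen of anchoring fibrils, was at 1.30, 1.31 and 2.93 CPM in Sal–Sal and at 5.50, 5.54 and 8.59 CPM in Coc–Coc (log2 fold change 1.81 ± 0.32). Pla1a, a phospholipase that acts on phosphatidylserine, was nearly constant in Sal–Sal at 1.30, 1.31 and 1.143 CPM and was 4.29, 3.15 and 4.95 CPM in Coc–Coc (log2 fold change 1.72 ± 0.28, adjusted p = 0.0161). Its call was kept in 8 of the 9 fits that left out a pool, against 4 of 9 for Hba-a2. Among the downregulated genes, Bloc1s3, a subunit of a complex in the biogenesis of lysosome-related organelles, went from 3.66, 4.75 and 2.74 to 1.502, 0.880 and 0.555 CPM (log2 fold change −1.93 ± 0.34). Trnp1, a nuclear protein known from cortical development, was at 10.95, 11.96 and 7.40 CPM in Sal–Sal and at 3.94, 2.69 and 1.76 CPM in Coc–Coc (log2 fold change −1.86 ± 0.30). Marcksl1, a membrane protein that binds actin, went from 4.46, 4.55 and 5.00 to 2.173, 1.16 and 0.772 CPM (log2 fold change −1.78 ± 0.32). In all 3 the highest Coc–Coc value was that of pool 1. With Coc–Coc pool 3 left out the log2 fold changes were 1.85, 1.57 and 1.57 for Hba-a2, Col7a1 and Pla1a and −1.64, −1.61 and −1.49 for Bloc1s3, Trnp1 and Marcksl1.

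At 10 to 100 CPM only 26 of 7737 genes differed by 1 or more on the log2 scale, called or not. Slc12a3, the thiazide-sensitive sodium chloride cotransporter known from kidney, was at 6.05, 7.91 and 11.3 CPM in Sal–Sal and at 25.1, 26.0 and 26.9 CPM in Coc–Coc, a 3.08-fold difference (log2 fold change 1.62 ± 0.29, adjusted p = 0.0175). The 3 Coc–Coc pools lay within 2 CPM of each other while the Sal–Sal pools spread more widely. Glt8d2, a glycosyltransferase, was at 6.23, 6.13 and 9.90 CPM in Sal–Sal and 15.3, 17.1 and 28.7 CPM in Coc–Coc (log2 fold change 1.45 ± 0.26), and Coc–Coc pool 3 was well above the other 2. Ybx2, a nucleic acid binding protein known from germ cells, went from 3.72, 5.14 and 6.33 to 14.4, 9.96 and 13.3 CPM (log2 fold change 1.30 ± 0.19). Tmem158, a membrane protein first described as induced by Ras, showed the largest difference of a named gene at this level. It was at 46.3, 50.4 and 27.8 CPM in Sal–Sal and at 15.0, 6.05 and 5.04 CPM in Coc–Coc, 0.209 times the Sal–Sal level (log2 fold change −2.26 ± 0.46, adjusted p = 0.0214). Scand1, a protein of the SCAN domain family, went from 25.5, 27.8 and 20.5 to 14.5, 5.17 and 4.37 CPM (log2 fold change −1.62 ± 0.39). Hnrnpa0, an RNA-binding protein of the hnRNP family, went from 36.6, 41.5 and 29.1 to 19.1, 10.5 and 9.41 CPM (log2 fold change −1.46 ± 0.26). In Tmem158, Scand1 and Hnrnpa0 alike, Coc–Coc pool 1 lay between Sal–Sal pool 3 and the other Coc–Coc pools. When Coc–Coc pool 3 was left out they were 1.60, 1.12 and 1.26 for Slc12a3, Glt8d2 and Ybx2 and −1.98, −1.33 and −1.27 for Tmem158, Scand1 and Hnrnpa0.

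At 100 to 1000 CPM none of the 287 called differences reached a doubling or halving, and 1 gene of this class that was not called did. Kcnt1, a sodium-activated potassium channel of neurons, was at 146, 169 and 169 CPM in Sal–Sal and at 297, 283 and 330 CPM in Coc–Coc, 1.88-fold higher (log2 fold change 0.91 ± 0.12, adjusted p = 0.0161). It had the smallest standard error relative to its size of the 24 genes, and its call was kept in 8 of the 9 fits that left out a pool. Leng8 was at 143, 209 and 249 CPM in Sal–Sal and 378, 348 and 422 CPM in Coc–Coc (log2 fold change 0.93 ± 0.17). Col11a2, a chain of a fibrillar collagen, went from 85.8, 103 and 119 to 253, 156 and 174 CPM (log2 fold change 0.92 ± 0.20), with Coc–Coc pool 1 the highest. Vgf, a secreted neuropeptide precursor induced by activity and neurotrophins, was at 146, 174 and 135 CPM in Sal–Sal and at 105, 85.4 and 94.9 CPM in Coc–Coc, 0.626 times the Sal–Sal level (log2 fold change −0.68 ± 0.14, adjusted p = 0.0220). Abhd8, a protein with a hydrolase fold, went from 197, 172 and 159 to 137, 109 and 97.5 CPM (log2 fold change −0.62 ± 0.13). Aes, a co-repressor of the Groucho family, went from 279, 240 and 226 to 211, 140 and 137 CPM (log2 fold change −0.61 ± 0.16, adjusted p = 0.0425). The gap between the groups was narrowest for Aes, 226 against 211 CPM, and its call was kept in only 3 of the 9 fits that left out a pool. The log2 fold changes without Coc–Coc pool 3 were 0.86, 1.00 and 0.85 for Leng8, Col11a2 and Kcnt1 and −0.68, −0.52 and −0.50 for Vgf, Abhd8 and Aes.

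**Figure D3:**
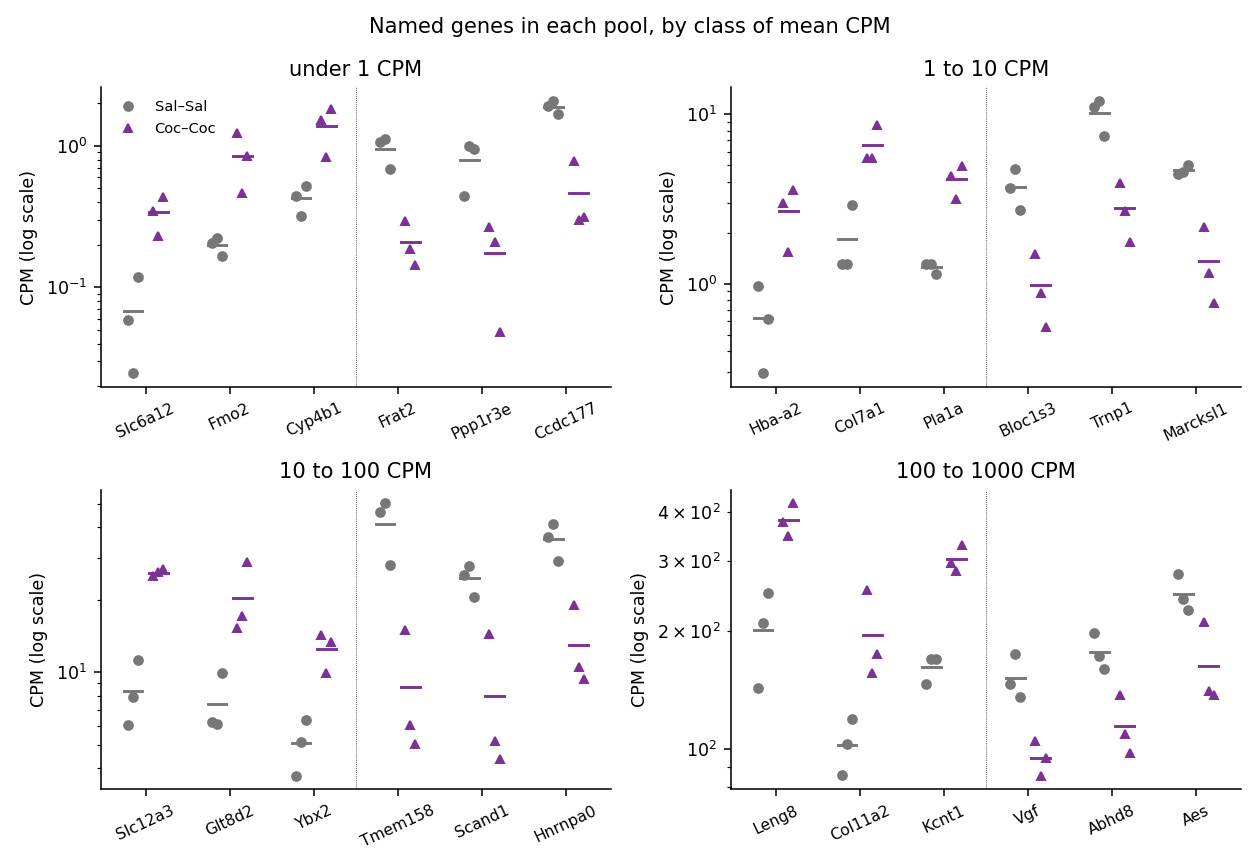
CPM (log scale) of the 24 named genes in each pool, one panel per class of mean CPM, with Sal–Sal pools as grey circles, Coc–Coc pools as purple triangles, pools 1 to 3 from left to right and a bar at each mean. Upregulated genes stand left of the dotted line and downregulated ones right. In all 12 downregulated genes the highest triangle is Coc–Coc pool 1, as for Tmem158 with 15.0 against 6.05 and 5.04 CPM.

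The order of pools within a group was shared across genes. Coc–Coc pool 1 was the pool nearest to Sal–Sal in 12 of the 12 named downregulated genes and in 304 (51.8%) of all 587 downregulated genes, and Sal–Sal pool 3 was the nearest to Coc–Coc in 10 of these 12 and in 314 (53.5%) of the 587. Among the 1115 upregulated genes, the nearest pools were most often Coc–Coc pool 2 (517, 46.4%) and Sal–Sal pool 3 (617, 55.3%). Sal–Sal pool 1 was the nearest in 39 (3.5%) of the upregulated and 46 (7.84%) of the downregulated genes. The part of this difference between pools in the calls was not tested beyond the fits without each pool.

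For side by side reading, the Sal–Coc group was compared with the same Sal–Sal pools, so its values are not independent of those above. All genes named by class had the same sign in Sal–Coc, and all but Hba-a2 passed the adjusted threshold there. Apart from Hba-a2, their differences were thus not particular to rats given cocaine on all 5 days. For Tmem158 the log2 fold change was −2.66 in the Sal–Coc rats, against −2.26 in the Coc–Coc rats. That of Slc12a3 was 1.79 and 1.62, that of Kcnt1 1.07 and 0.91, and that of Vgf −0.52 and −0.68. For Hba-a2 it was 0.47 in Sal–Coc and 2.11 in Coc–Coc, with a Sal–Coc mean of 0.865 CPM.

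Lists of genes of known function were then followed. Each list is described by its members with a symbol. These are members that the study listed in some comparison, the lists were drawn up with earlier results known, and 61.8% of all genes with a symbol were called, so the counts describe the named members and say little about the lists as wholes. Most symbols from another comparison came from Sal–Coc against the same Sal–Sal pools, so such genes are no independent check. Members named only by another comparison are to be read beside the 31.5% called among all such genes. Of these, 0 of 1 was called in the vesicle cycle, 1 of 3 in calcium channels, 0 of 3 in potassium channels, 2 of 5 in glutamate receptors, 0 of 3 in GABA genes, 0 of 1 in G protein subunits, 1 of 1 in both neuropeptides and heat shock proteins, and 1 of 5 in growth factors and receptors. In this section a median is that of the log2 fold change over the members with a symbol, to be read beside −0.01 over all genes tested. In Sal–Coc against the same Sal–Sal pools the medians were 0.61 for splicing regulators and 0.68 for chromatin enzymes. They were 0.80 for ABC transporters, 0.83 for collagens and matrix and −0.45 for the respiratory chain. The direction of these lists was thus not particular to rats given cocaine on all 5 days.

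The named regulators of RNA splicing and of chromatin were mostly upregulated. Of 35 splicing regulators, 14 had a symbol and 13 of these were upregulated, 0 downregulated, with a median of 0.53. For the 3 whose symbol came only from another comparison, 2 were called. Snrnp70, a protein of the U1 particle that recognises the start of introns, was at 367, 502 and 480 CPM in Sal–Sal and at 753, 696 and 772 CPM in Coc–Coc (log2 fold change 0.72 ± 0.12, adjusted p = 0.0161). Rbm25, a regulator of splice site choice, went from 13.8, 19.8 and 16.9 to 28.6, 27.6 and 27.4 CPM (log2 fold change 0.72 ± 0.12). Clk3, a kinase that phosphorylates SR splicing factors, went from 66.6, 79.4 and 77.2 to 117, 100 and 109 CPM (log2 fold change 0.55 ± 0.09). In these 3 genes the groups were clearly apart, and Sal–Sal pool 1 was the lowest pool. Of 52 histone methyltransferases, deacetylases and DNA methylation enzymes, 12 had a symbol, 9 were upregulated and 0 downregulated, with a median of 0.47, and 5 of the 8 named only by another comparison were called. Suv420h2, which methylates histone H4, went from 26.1, 33.9 and 33.3 to 58.4, 53.0 and 56.2 CPM (log2 fold change 0.84 ± 0.11, adjusted p = 0.0161). Hdac10, a deacetylase that acts on polyamines, went from 12.9, 15.6 and 16.8 to 27.1, 24.8 and 28.6 CPM (log2 fold change 0.83 ± 0.12). Kmt2c, a histone H3 methyltransferase of enhancers, went from 12.8, 13.0 and 14.1 to 17.3, 18.8 and 18.5 CPM (log2 fold change 0.46 ± 0.08). In the fit without Coc–Coc pool 3 the log2 fold changes were 0.69, 0.74 and 0.54 for Snrnp70, Rbm25 and Clk3 and 0.84, 0.78 and 0.44 for Suv420h2, Hdac10 and Kmt2c, with 0 members of either list called.

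Named membrane transporters of the ABC family were upregulated or did not pass the test. Of 36 members 13 had a symbol, 8 were upregulated and 0 downregulated, with a median of 0.64. Of the 5 named only by another comparison 1 was called. Neither share exceeded that of all genes with a symbol, 61.8%, or of all named only by another comparison, 31.5%. Abcc6, a transporter known for its part in preventing calcification, was at 0.620, 0.840 and 1.12 CPM in Sal–Sal and 2.84, 2.11 and 2.85 CPM in Coc–Coc (log2 fold change 1.58 ± 0.24, adjusted p = 0.0161). Abca4, a lipid transporter known from photoreceptors, went from 2.13, 1.73 and 1.43 to 4.37, 3.91 and 5.14 CPM (log2 fold change 1.35 ± 0.20). Abcc8, the sulfonylurea receptor that regulates potassium channels gated by ATP, went from 16.3, 17.4 and 18.1 to 28.0, 25.2 and 29.4 CPM (log2 fold change 0.67 ± 0.11). Pools of the groups did not overlap in these genes. Without Coc–Coc pool 3 the log2 fold changes were 1.51, 1.24 and 0.62, and 0 members were called.

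Genes of transmitter release and signalling moved in both directions. Of 40 genes of the synaptic vesicle cycle, 7 had a symbol, 5 were upregulated and 1 was downregulated. Stx2, a syntaxin of membrane fusion, went from 29.0, 35.8 and 37.3 to 61.3, 50.4 and 52.4 CPM (log2 fold change 0.68 ± 0.11), and Slc18a1, a vesicular monoamine transporter, from 10.1, 14.2 and 14.7 to 20.9, 20.03 and 22.3 CPM (0.69 ± 0.15). The downregulated member was Slc32a1, which loads GABA and glycine into vesicles. It was at 235, 219 and 209 CPM in Sal–Sal and at 155, 151 and 161 CPM in Coc–Coc, 0.705 times the Sal–Sal level (log2 fold change −0.50 ± 0.08, adjusted p = 0.0161), with little spread within either group. Of 21 genes of GABA receptors, synthesis and transport, 6 had a symbol. Slc32a1 was downregulated and the plasma membrane transporters Slc6a12 and Slc6a13 were upregulated, Slc6a13 from 3.19, 3.78 and 4.10 to 6.89, 5.44 and 7.24 CPM (log2 fold change 0.82 ± 0.15). The other 3 members did not pass the test.

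Of 24 voltage-gated calcium channel genes 5 had a symbol, 3 were upregulated and 0 downregulated. Cacna1d, the pore of an L-type channel, went from 88.8, 119 and 127 to 181, 181 and 183 CPM (log2 fold change 0.70 ± 0.12, adjusted p = 0.0171). Cacna1a, the pore of the P/Q-type channel of nerve terminals, went from 172, 181 and 205 to 247, 263 and 260 CPM (0.46 ± 0.11). Cacng8, an auxiliary subunit of AMPA receptors, went from 99.6, 118 and 111 to 146, 144 and 149 CPM (0.42 ± 0.08). The Coc–Coc values of these 3 genes were close together and above every Sal–Sal value. Among 25 glutamate receptor genes 6 had a symbol, 3 were upregulated and 0 downregulated. Gria1, an AMPA receptor subunit, went from 388, 427 and 437 to 499, 610 and 601 CPM (log2 fold change 0.45 ± 0.11, adjusted p = 0.0315). Grin1, the subunit common to NMDA receptors, went from 479, 517 and 530 to 657, 606 and 676 CPM (0.35 ± 0.09), and Grik5, a kainate receptor subunit, from 226, 233 and 231 to 327, 302 and 316 CPM (0.46 ± 0.11). Grik5 and Grin1 kept their calls in only 2 of the 9 fits that left out a pool.

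Of 43 potassium channel genes 4 had a symbol, and Kcnt1 was the only one called. Of 27 G protein subunits 3 had a symbol and 2 were upregulated. Gnb3, a beta subunit known from cone photoreceptors, went from 1.83, 1.93 and 3.21 to 5.71, 6.05 and 6.202 CPM (log2 fold change 1.36 ± 0.22, adjusted p = 0.0161), and Gng8, a gamma subunit, from 11.1, 9.52 and 18.7 to 21.4, 22.0 and 29.9 CPM (0.90 ± 0.23). Sal–Sal pool 3 was the highest of its group in both. Of 20 neuropeptide precursors only Nts, the precursor of neurotensin, had a symbol. It was at 46.5, 47.4 and 35.3 CPM in Sal–Sal and at 33.0, 29.4 and 31.7 CPM in Coc–Coc (log2 fold change −0.46 ± 0.12, adjusted p = 0.0387), and its call was kept in 2 of the 9 fits that left out a pool. Without Coc–Coc pool 3 the log2 fold changes of Stx2, Slc18a1, Slc32a1, Slc6a13, Cacna1d, Cacna1a, Cacng8, Gria1, Grin1, Grik5, Gnb3, Gng8 and Nts kept their signs and lay between −0.53 for Slc32a1 and 1.33 for Gnb3, with 0 members of these lists called.

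Genes of vessels, matrix and growth factors included several that were higher. Of 37 collagens and other matrix genes 13 had a symbol, 8 were upregulated and 0 downregulated, with a median of 0.57. Among the 5 named only by another comparison 1 was called. As for the ABC family, neither share exceeded those of all such genes. Fn1, the fibronectin of blood plasma and vessel walls, went from 18.9, 16.1 and 16.2 to 36.9, 28.4 and 39.3 CPM (log2 fold change 1.03 ± 0.18, adjusted p = 0.0165). Col27a1, a fibrillar collagen, went from 25.4, 37.1 and 37.2 to 79.1, 53.6 and 66.2 CPM (0.99 ± 0.19), and Col12a1, a collagen bound to fibrils, from 10.9, 11.4 and 9.81 to 16.8, 14.2 and 16.3 CPM (0.56 ± 0.10). Coc–Coc pool 2 was the lowest of its group in all 3. Of 37 growth factors and receptors 7 had a symbol. Pdgfrb, the receptor that marks pericytes, went from 20.3, 21.3 and 23.1 to 36.9, 29.4 and 29.7 CPM (log2 fold change 0.57 ± 0.10, adjusted p = 0.0183). Vegfa, a growth factor of vessels, went from 96.9, 110 and 107 to 145, 136 and 130 CPM (0.39 ± 0.08), whereas Vegfb, of the same family, went from 21.2, 15.4 and 20.4 to 12.9, 10.4 and 13.6 CPM (−0.63 ± 0.15, adjusted p = 0.0336). These 6 genes had, without Coc–Coc pool 3, log2 fold changes of 0.94, 1.00, 0.53, 0.62, 0.43 and −0.71 in the order named, and 0 members of either list were called.

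The few named markers of blood vessels and blood were higher in Coc–Coc. All of them had a symbol because the study listed them for this same comparison, so their direction was fixed by that choice. The other markers of these cells could not be seen. Of 10 endothelial and mural markers 2 had a symbol, Pdgfrb and Vwf, and their summed level was 29.5 to 34.5 CPM in Sal–Sal and 43.0 to 54.1 CPM in Coc–Coc pools. Vwf alone, the von Willebrand factor of endothelium, had a log2 fold change of 0.65 ± 0.18 and did not pass the test (adjusted p = 0.05004). Of 7 red blood cell markers only Hba-a2 had a symbol, at 0.297 to 0.974 CPM in Sal–Sal and 1.53 to 3.55 CPM in Coc–Coc. Of 10 microglial markers 2 had a symbol, C1qb and C1qc, with a summed level of 66.7 to 79.6 CPM in Sal–Sal and 50.3 to 68.7 CPM in Coc–Coc and no call. The astrocyte marker Slc1a2, the only one of 8 with a symbol, was at 394 to 530 CPM in Sal–Sal and 370 to 521 CPM in Coc–Coc (log2 fold change −0.05 ± 0.17), and the interneuron marker Pvalb, 1 of 8, was at 7.91 to 11.95 and 6.23 to 7.24 CPM (−0.54 ± 0.16, adjusted p = 0.0543). No marker of striatal projection neurons, cortical neurons, oligodendrocytes, their precursors or choroid plexus had a symbol, so the labelled region could not be checked by its defining markers. The part of vessel and blood content in the results was not tested, and in bulk tissue fewer cells of a type and less RNA per cell cannot be told apart.

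Named genes of the respiratory chain were downregulated or did not pass the test, and the 2 named chaperones were downregulated. Of 78 cytosolic ribosomal protein genes 33 had a symbol, all of them from another comparison. Their log2 fold changes lay between −0.54 and −0.16 with a median of −0.29, but only Rps13 was called. The study had listed them for Sal–Coc against the same Sal–Sal pools, where their median was −0.47. Their shared direction is therefore not independent of that choice. Rps13, of the small subunit, was at 35.1, 29.8 and 25.4 CPM in Sal–Sal and at 23.2, 21.0 and 17.9 CPM in Coc–Coc (log2 fold change −0.54 ± 0.13, adjusted p = 0.0355). Rpl36 (−0.49 ± 0.15) and Rpl10 (−0.32 ± 0.10), both of the large subunit, had an adjusted p of 0.0627. Ribosomal protein genes have many processed copies, so their counts are uncertain. Of 71 nuclear-encoded genes of the respiratory chain 7 had a symbol, 4 were downregulated and 0 upregulated, with a median of −0.40, and 1 of the 4 named only by another comparison was called. Cox5a, of cytochrome oxidase, went from 89.6, 91.5 and 86.6 to 66.2, 58.2 and 61.7 CPM (log2 fold change −0.52 ± 0.07, adjusted p = 0.0161) and kept its call in 8 of the 9 fits that left out a pool. Cox8a, of the same enzyme, went from 164, 143 and 127 to 112, 72.1 and 69.7 CPM (−0.78 ± 0.19). Uqcrfs1, the iron-sulfur protein of the cytochrome bc complex, went from 112, 110 and 98.3 to 82.1, 82.1 and 78.9 CPM (−0.40 ± 0.09), and Atp5d, of ATP synthase, from 140, 131 and 111 to 107, 87.1 and 85.1 CPM (−0.45 ± 0.12). The groups did not overlap in these 4 genes, though for Atp5d they were only 111 and 107 CPM apart at their nearest. Of 28 heat shock proteins and regulators 3 had a symbol. The chaperones Hspa5, of the endoplasmic reticulum, and Dnajb1 were lower (log2 fold changes −0.46 ± 0.11 and −0.32 ± 0.09), and Hsf1, the transcription factor of the heat shock response, was higher (0.48 ± 0.11). Without Coc–Coc pool 3 the log2 fold changes of Rps13, Cox5a, Cox8a, Uqcrfs1 and Atp5d lay between −0.65 and −0.38, and those of Hspa5, Dnajb1 and Hsf1 were −0.53, −0.36 and 0.46, with 0 calls.

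**Figure D4:**
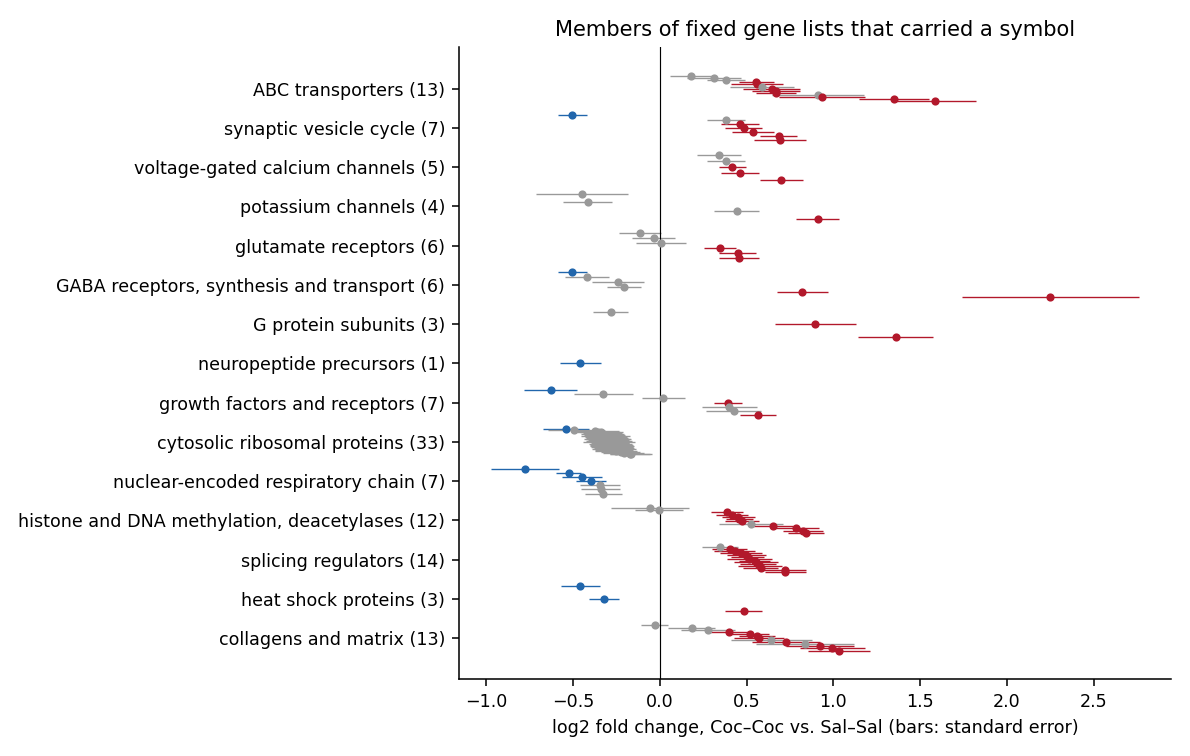
Log2 fold change (Coc–Coc vs. Sal–Sal) of every list member that carried a symbol, one row per list with the number of such members in brackets, bars showing the standard error. Upregulated members are red, downregulated members blue and members that did not pass the test grey. The 14 splicing regulators all lie right of 0 (13 red) and the 33 ribosomal protein genes all lie left of it (1 blue). The study listed 11 of the 14 splicing regulators for this comparison. It listed the ribosomal genes for Sal–Coc against the same Sal–Sal pools. The shared signs are therefore not independent of how members came to have a symbol.

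Upregulated and downregulated genes differed in the length of genome they occupy, a property that the test did not use. The span from first to last annotated base was taken from RefSeq (GRCr8) for genes with a symbol, and this comparison and its 10 kb border were chosen after the values had been seen. Among upregulated genes 697 of 744 had a span, with a median of 27.1 kb, and 92 (13.2%) spanned less than 10 kb. Among downregulated genes 165 of 186 had a span, with a median of 5.31 kb, and 112 (67.9%) spanned less than 10 kb. Genes with a symbol that were not called had a median of 25.5 kb, with 31.1% under 10 kb, and all 23154 RefSeq protein-coding genes one of 15.5 kb, with 39.7% under 10 kb. The difference was present at each level with enough genes. Medians were 19.6 kb up and 3.5 kb down at 1 to 10 CPM, 27.0 and 6.40 kb at 10 to 100 CPM and 34.2 and 6.85 kb at 100 to 1000 CPM. Below 1 CPM too few genes had a span and no comparison was made. Tmem158 spans 999 bases, Scand1 865 and Hnrnpa0 2658, whereas Slc12a3 spans 53415, Glt8d2 51562 and Kcnt1 55832. Among the upregulated genes named in the text, exceptions included Ybx2 with 5658 bases, Hba-a2 with 848 and Gng8 with 3855. Hdac10 with 5690, Gnb3 with 5703 and Suv420h2 with 7607 bases were further ones. Downregulated genes above the 10 kb border included Cox5a with 11408 bases and Uqcrfs1 with 17166. As symbols exist only for genes the study listed, the 772 called genes without one are not covered. Coding length, transcript length and base composition of the tested genes were not at hand for 80% of them, so the planned division of all genes by length and GC content is void.

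**Figure D5:**
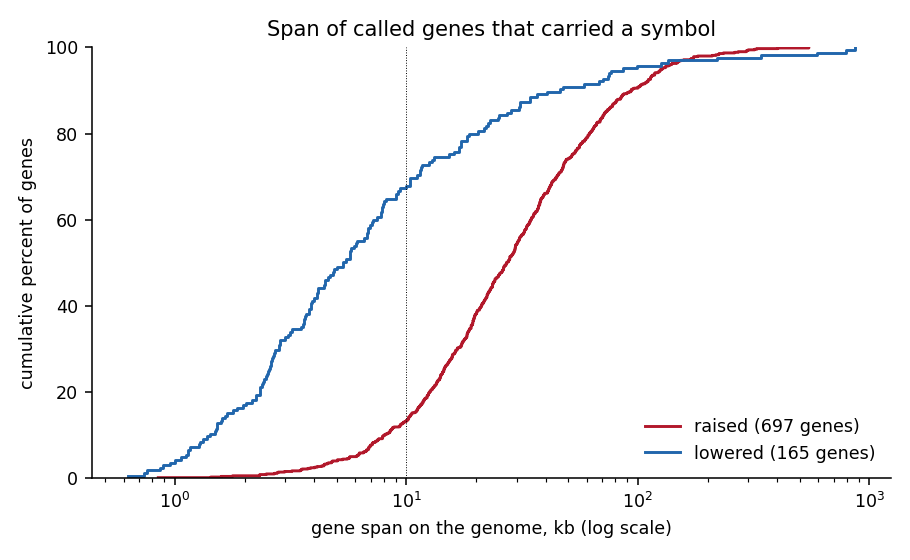
Cumulative percent of called genes with a symbol (vertical axis) whose genomic span is at most the value on the horizontal axis (kb, log scale), for 697 upregulated (red) and 165 downregulated (blue) genes, with a dotted line at 10 kb. At that line the blue curve stands at 67.9% and the red curve at 13.2%, against 31.1% of the genes with a symbol that were not called and 39.7% of all RefSeq protein-coding genes, which are not drawn.

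The promoters of the named genes are shown for the same contrast. RefSeq promoters (GRCr8, 300 bases around the first listed start) were found for 22 of the 24 named genes, all 12 downregulated and 10 of 12 upregulated. Comparing them was also decided on after values had been seen, and is a description of these genes only. The dinucleotide CG, which reads the same on both strands, occurred 9 to 47 times in the downregulated promoters (median 22.5) and 3 to 33 times in the upregulated ones (median 8), against a median of 7 in all 27457 promoters. The sequences below are those of the gene of largest size in each direction at 10 to 100 and at 100 to 1000 CPM, with every CG in capitals, 5′ to 3′ along the gene's strand. Tmem158 holds 32 and Vgf 25, while Slc12a3 holds 7 and Leng8, an upregulated gene, 33. At least as many CG as in Tmem158 are found in 8.96% of all promoters, and as in Slc12a3 in 53.5%.
Tmem158, chr8:131792086-131792385, minus strand: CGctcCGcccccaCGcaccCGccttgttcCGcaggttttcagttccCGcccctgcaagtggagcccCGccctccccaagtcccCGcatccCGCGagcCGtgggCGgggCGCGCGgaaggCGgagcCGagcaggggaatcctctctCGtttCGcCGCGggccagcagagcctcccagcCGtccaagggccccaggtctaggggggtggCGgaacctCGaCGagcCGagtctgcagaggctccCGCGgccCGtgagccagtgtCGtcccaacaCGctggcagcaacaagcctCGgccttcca
Vgf, chr12:25276971-25277270, minus strand: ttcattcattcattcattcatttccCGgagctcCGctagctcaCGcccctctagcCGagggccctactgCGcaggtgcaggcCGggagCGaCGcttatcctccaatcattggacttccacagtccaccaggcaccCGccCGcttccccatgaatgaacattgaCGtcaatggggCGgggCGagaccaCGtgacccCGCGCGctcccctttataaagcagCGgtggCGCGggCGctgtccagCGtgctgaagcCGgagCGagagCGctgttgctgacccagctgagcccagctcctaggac
Slc12a3, chr19:10675001-10675300, minus strand: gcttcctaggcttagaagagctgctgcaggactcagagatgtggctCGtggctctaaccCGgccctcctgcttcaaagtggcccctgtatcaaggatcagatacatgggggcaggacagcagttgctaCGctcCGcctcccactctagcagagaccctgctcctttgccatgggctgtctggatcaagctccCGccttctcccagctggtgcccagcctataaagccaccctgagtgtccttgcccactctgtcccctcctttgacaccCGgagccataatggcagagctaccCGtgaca
Leng8, chr1:79124689-79124988, minus strand: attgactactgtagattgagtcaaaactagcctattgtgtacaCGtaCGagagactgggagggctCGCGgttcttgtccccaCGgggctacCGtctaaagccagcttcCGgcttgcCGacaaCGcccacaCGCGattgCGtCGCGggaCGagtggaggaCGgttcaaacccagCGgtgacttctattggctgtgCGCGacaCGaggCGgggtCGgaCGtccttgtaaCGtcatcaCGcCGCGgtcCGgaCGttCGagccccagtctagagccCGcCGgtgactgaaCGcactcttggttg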

How the data were processed

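Polyadenylated RNA of the nucleus accumbens was sequenced from 3 pools per group. The values deposited by the authors are unnormalized read counts for each Ensembl gene, with 4 tables (technical replicates) per pool. To make them, they trimmed and filtered reads, aligned these to the rat genome of Ensembl with STAR, discarded multiply mapping reads and counted per gene in the Eoulsan pipeline. The submitters' processing notes name HTSeq 0.5.3 and bcl2fastq 2.17.1.14. The libraries were strand-specific, but whether counting used strand is not given in the sources used here, so overlapping and antisense genes are uncertain.

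Technical replicates were summed per pool because their differences were close to sampling noise (chi-square per degree of freedom 1.0038 to 1.0226). Genes were filtered with filterByExpr, normalized by TMM and fitted over all 9 pools with edgeR 4.0.16 in R 4.3.3 (quasi-likelihood test, Benjamini-Hochberg threshold 0.05). The standard error is the log2 fold change divided by the square root of F. The test was tried on simulated counts of this comparison (15613 genes). It recovered 1, 25, 37 and 48 of 50 genes changed 1.2, 1.5, 2 and 4-fold, with 12 false calls. The simulated counts varied independently between genes, at a spread set by expression level and without shifts shared by a whole pool. They therefore cannot show how the test performs on the real pools. Alternatives were other normalizations and filters, DESeq2 1.42.0, limma-voom (limma 3.58.1), 6 pools only, a replicate block, technical replicate a alone and leaving out each pool. Nothing states that pools came from separate experiments, so p-values measure the spread between these pools.

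The tables hold no symbols and the reference given here pairs none with Ensembl identifiers. Symbols were therefore joined by value, by seeking the identifier whose ratio of group means, normalized by median-of-ratios size factors, equalled a fold change published by the study. Those fold changes served only as keys. Of 1539 symbols 1506 led to 1 identifier, and 1374 of these were found in RefSeq. This departs from the planned naming from reference tables. Named genes are, in each of 5 classes of mean CPM, the 3 upregulated and 3 downregulated genes of largest log2 fold change among those called, with non-overlapping pools and a RefSeq symbol, and in each list up to 3 members of smallest p plus all called members of lists with 5 or fewer. The comparison, the classes and the lists were chosen with earlier results of these data known.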

Additional observations from a re-analysis of the deposited data

How the results depend on the processing

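The results rest on few pools. Across the 9 fits that each left out a pool, the number of genes called ranged from 0 (without Coc–Coc pool 3) to 2131 (without Sal–Coc pool 1), of genes raised from 0 to 1332 and of genes lowered from 0 to 799. Without Sal–Sal pools 1, 2 and 3 it was 292, 984 and 1820, without Sal–Coc pools 2 and 3 it was 1052 and 1266, and without Coc–Coc pools 1 and 2 it was 837 and 174. By class the calls ranged from 0 to 60 below 1 CPM, 0 to 304 at 1 to 10, 0 to 1388 at 10 to 100, 0 to 374 at 100 to 1000 and 0 to 4 at 1000 CPM or more. Between 0 and 258 genes passed a minimum fold of 1.2 and between 0 and 6 one of 1.5. Called list members ranged from 0 up to 2 (potassium channels, G protein subunits), 3 (glutamate receptors, GABA, growth factors and receptors, heat shock proteins), 4 (calcium channels, the respiratory chain), 7 (the vesicle cycle, ribosomal proteins), 9 (ABC transporters, collagens and matrix), 10 (chromatin enzymes) and 13 (splicing regulators). The median absolute log2 fold change at 1000 CPM or more ranged from 0.098 to 0.231. Library totals only gave 883 calls (701 raised, 182 lowered), or 33, 135, 573 and 142 in the 4 classes below 1000 CPM, with 1 heat shock and 5 matrix members. Without a filter 384 genes were lowered, 31 were called below 1 CPM and 68 passed a fold of 1.2. Requiring 1 CPM in 3 pools left 15 calls below 1 CPM. DESeq2 called 2869 genes (1716 raised, 1153 lowered), or 33, 434, 1833, 561 and 8 by class, with 3 potassium channel, 4 ribosomal and 7 respiratory members. At 1000 CPM or more, upper-quartile factors gave 6 calls and limma-voom 1. Fitting only the 6 pools gave 32 calls below 1 CPM, 2 potassium channel, 1 G protein, 0 ribosomal and 5 matrix members. Technical replicate a alone, the shallowest setting, gave 1057 calls (278 lowered), or 4, 99 and 726 in the 3 lowest classes, with 10 genes past a fold of 1.2, 1 GABA and 0 ribosomal members. The causes of these differences were not tested.

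Pool numbers recur in each group, and 3 correlations cannot tell whether they pair the samples. For numbers 1, 2 and 3 the correlations of same-numbered deviations were 0.045, 0.133 and 0.249. The highest with other numbers were 0.032, 0.159 and −0.051. With the replicate block 1126 genes were called (309 lowered), or 22 and 135 in the 2 lowest classes, with 1 glutamate receptor, 3 ribosomal, 2 respiratory, 1 heat shock and 5 matrix members. Among the genes named in the text, signs changed only for Slc1a2, not called in any fit, with a log2 fold change between −0.19 and 0.09 when a pool was left out (0.092 without Sal–Sal pool 1, 0.061 without Coc–Coc pool 3). All 24 genes chosen by class kept their calls under upper-quartile factors, RLE size factors, library totals, no filter and limma-voom. Under the replicate block 4 lost them and under DESeq2 3. With only the 6 pools 21 kept their calls and 2 lost them. With technical replicate a alone 18 kept and 2 lost them. When 1 CPM in 3 pools was required, 20 kept and 0 lost them. In these settings the remaining genes were not among those tested.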
